A study of Homo sapiens with 12 samples.

Results

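The secreted Wnt antagonists are proteins that cells release to hold back Wnt signalling. They were read here as 9 genes (DKK3, DKK1, DKK2, DKK4, SFRP1, SFRP2, SFRP5, FRZB and WIF1) of the 65969 gene identifiers in the deposited table. DKK3 was chosen by its measured level, because it was higher in all 9 METTL14 knockdown libraries than in the control libraries, and the other 8 genes were taken by name as its relatives, to ask whether they move with it. All 9 passed the filter on low counts that left 24898 genes for testing. The knockdown values that chose DKK3 are therefore a description and carry no test; comparisons among hairpins and between cell lines did not choose any member.

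Wnt ligands bind Frizzled receptors and the co-receptors LRP5 and LRP6, which stabilises beta-catenin and switches on target genes. Secreted frizzled-related proteins (the SFRP genes and FRZB) and WIF1 bind Wnt ligands outside the cell, whereas DKK1, DKK2 and DKK4 bind LRP5 and LRP6. DKK3 is the divergent member of the Dickkopf family, and its part in Wnt signalling is less settled. In differentiating pluripotent stem cells these antagonists are known for helping to set anterior and neural fates.

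Total RNA was sequenced from embryoid bodies, the aggregates that pluripotent cells form as they differentiate in suspension. Both lines used, H1 and MEL1, are established lines of human embryonic stem cells. Cells of every group were transduced with a lentiviral vector, selected with puromycin and grown as aggregates for 10 days from 500 cells per microwell with doxycycline at 2 µg/ml, which turns on the hairpin. In H1 there were 2 libraries each of SCR (the control hairpin), KD1, KD2 and KD3 (3 hairpins against METTL14). In MEL1 there were 1 SCR, 2 KD1 and 1 KD2 library, so the MEL1 control has no replicate. All groups, SCR included, received doxycycline and express a hairpin. The METTL14 protein pairs with METTL3 in the enzyme that places N6-methyladenosine (m6A), a methyl mark, on RNA. The labels give each sample's cell type as hESC, and nothing in them says whether libraries of a group came from separate cultures, so p-values measure the spread between these libraries, which may be technical.

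The smallest total of estimated counts was 15963241, that of MEL1 SCR, and the other 11 libraries had 36609628 to 43508287. Levels are given as CPM, that is counts relative to library totals scaled with TMM (trimmed mean of M-values). METTL14 was at 29.8 and 43.8 CPM in H1 SCR and at 8.89 to 17.6 CPM in the 6 H1 knockdown libraries. In MEL1 it was at 49.9 CPM in SCR and at 5.94 to 8.95 CPM in the 3 knockdown libraries, so the groups did not overlap in either line. These are bulk libraries of mixed cells: fewer cells of a type and less RNA per cell cannot be told apart. The MEL1 KD2 library stood apart from the other MEL1 libraries, with 1142 CPM summed over 6 pluripotency markers against 2598 in MEL1 SCR and 3142 to 3252 in MEL1 KD1. Its 6 neural crest markers summed to 501 CPM against 238 in SCR and 139 to 176 in KD1.

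DKK3 lies on the minus strand at chr11:11963106-12009769 (GRCh38, GENCODE release 29). DKK3 was at 14.4 and 15.3 CPM in H1 SCR. It was at 30.5 and 34.8 CPM with KD1, 30.3 and 30.6 CPM with KD2, and 37.9 and 35.5 CPM with KD3. In MEL1, DKK3 was at 15.3 CPM in SCR, 35.1 and 38.7 CPM with KD1 and 31.6 CPM with KD2. All 9 knockdown libraries lay above all 3 SCR libraries. The H1 means were 14.8 ± 0.644 CPM (SD, n = 2) in SCR and 33.3 ± 3.26 CPM (SD, n = 6) in knockdown, and the 3 MEL1 knockdown libraries had a mean of 35.1 ± 3.55 CPM (SD, n = 3). Over both lines, with line as a covariate, DKK3 was 2.26-fold higher, a log2 fold change of 1.18 (SE 0.12), which chose the gene and is given without a test. Leaving out each library in turn gave 1.15 to 1.21.

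**Figure D1:**
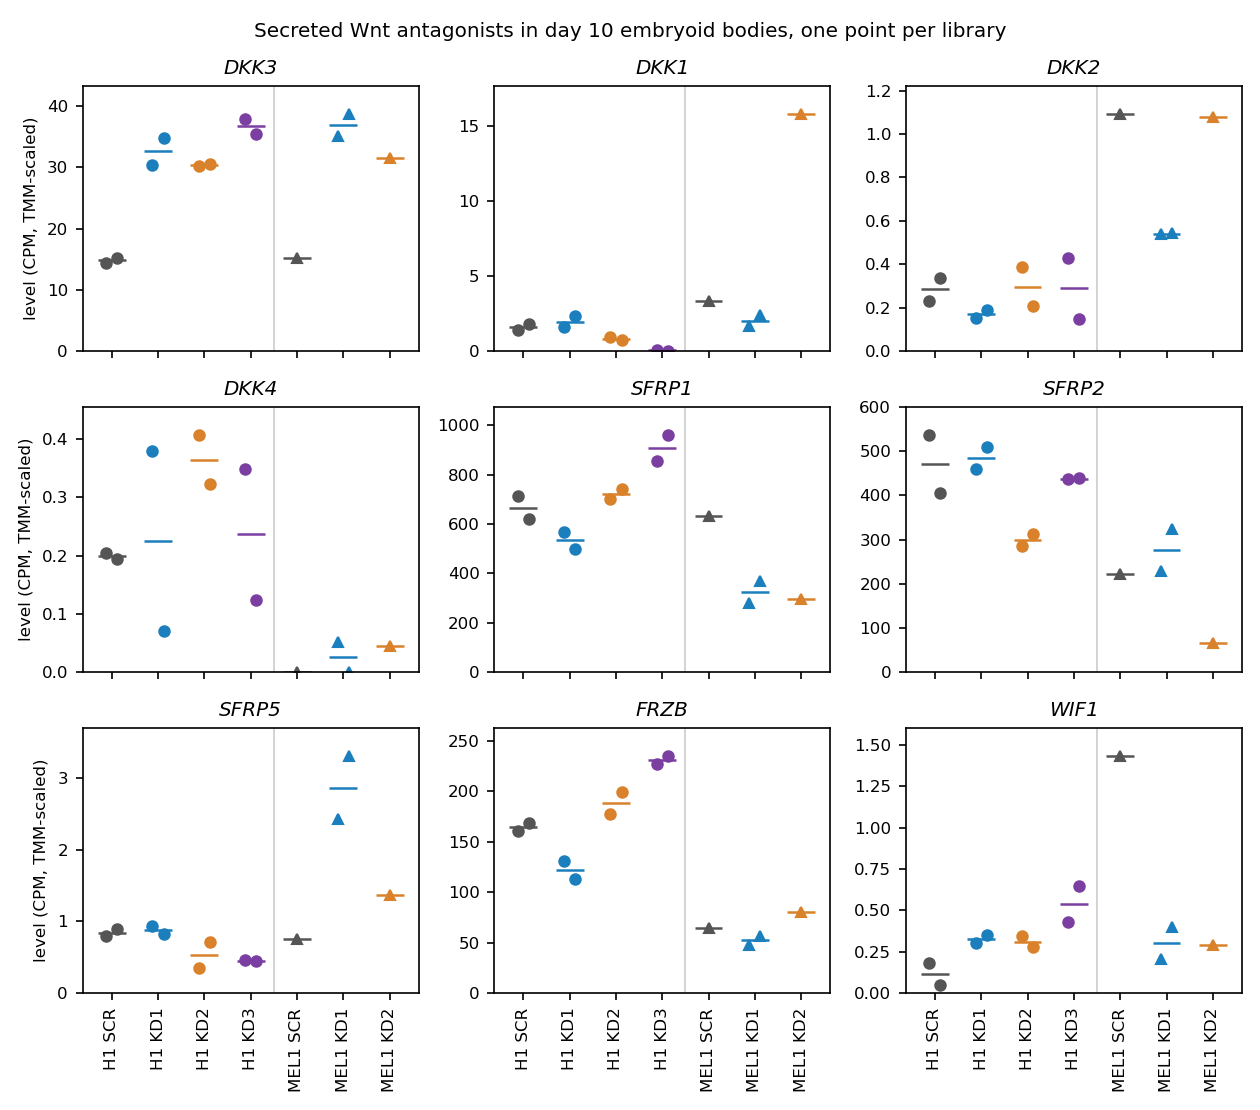
Levels of the 9 genes in TMM-scaled CPM (vertical axes, linear and starting at 0, with a separate scale for each gene) by line and hairpin; each point is 1 library, circles are H1, triangles are MEL1, and horizontal bars are group means. In DKK3 the SCR points sit between 14.4 and 15.3 CPM and the knockdown points between 30.3 and 38.7 CPM; no other gene shows that arrangement in both lines.

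The comparisons that did not choose DKK3 gave no call for it. KD2 minus KD1 was -0.10 (95% interval -0.38 to 0.17), KD3 minus KD1 was 0.17 (-0.10 to 0.44) and KD3 minus KD2 was 0.27 (0.00 to 0.55) on the log2 scale. A joint test of the 3 H1 hairpins gave an adjusted p of 0.393 in edgeR's quasi-likelihood test with Benjamini-Hochberg adjustment over all tested genes. The level of DKK3 in MEL1 minus that in H1, averaged over SCR, KD1 and KD2, was 0.09 on the log2 scale (-0.10 to 0.28), with an edgeR adjusted p of 0.405. A p that misses the threshold does not show equal levels; the intervals give the differences these libraries allow. The knockdown effect itself was 0.07 log2 units larger in MEL1 than in H1 (-0.35 to 0.49), given without a p.

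The coding sequence of DKK3 holds the letters GGACT in 2 places, shown because GGACT is a common form of the m6A consensus and METTL14 belongs to the m6A writer. The windows run 5′ to 3′ on the transcript strand with GGACT in capitals and 30 bases on each side, read from the GENCODE release 29 transcript on GRCh38. The first window covers coding bases 423 to 487 and the second coding bases 606 to 670 of 1053.
DKK3 first: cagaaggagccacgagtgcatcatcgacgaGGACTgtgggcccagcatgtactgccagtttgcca
DKK3 second: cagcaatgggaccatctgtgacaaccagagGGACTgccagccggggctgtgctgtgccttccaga
No m6A was measured in these libraries, and a match is a description of letters, not a site. GGACT occurred on the transcript strand of the coding sequence in 74.1% of the 16216 tested genes with a complete coding transcript, so its presence does not single out DKK3. At 1.90 matches per kilobase of coding sequence, DKK3 had more than 80.3% of those genes. That share was 99.6% for DKK4, 76.7% for WIF1, 61.9% for DKK2, 60.4% for DKK1 and 51.6% for FRZB. The 3′ UTR of DKK3 held 1 further match, and 60.5% of those genes had a match in the 3′ UTR.

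The 8 relatives of DKK3 had lower log2 fold changes over both lines than its 1.18. That value chose DKK3, and its own 95% interval was 0.917 to 1.437, so setting the relatives against 1.18 is a description. The 95% intervals of the log2 fold change were -0.779 to 0.169 for SFRP1, -0.905 to 0.553 for SFRP2 and -0.375 to 0.515 for FRZB. Those of SFRP5 (-0.866 to 1.041) and DKK2 (-1.262 to 0.608) also lay below the 1.18 of DKK3, but that of SFRP5 overlapped the DKK3 interval. Those of DKK1 (-2.359 to 1.806), DKK4 (-1.026 to 2.204) and WIF1 (-1.735 to 1.47) included 1.18. An equal rise was thus not excluded for DKK1, DKK4, WIF1 or SFRP5. None of the 8 passed the edgeR quasi-likelihood test of knockdown against SCR over both lines at an adjusted p under 0.05. An unadjusted p under 0.05 in that test was found for 0 of 8, beside 3918 of all 24898 tested genes. Of all tested genes 0.213% were called in that comparison, so few calls were available for any group of genes. In DESeq2 the count was also 0, where 1246 of the 24898 genes were called. A fit on group means, in which the spread comes from within groups, called SFRP1 and SFRP2, both lower, among 2478 genes called in all. No relative was higher than its line's SCR mean in all 9 knockdown libraries, as DKK3 was. The largest counts were 6 of 9, for DKK4 and WIF1, and FRZB was higher in 5 of 9, SFRP1 and SFRP5 in 4, DKK1 and SFRP2 in 3, and DKK2 in 2. The shares of all tested genes with such counts are not given here.

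**Figure D2:**
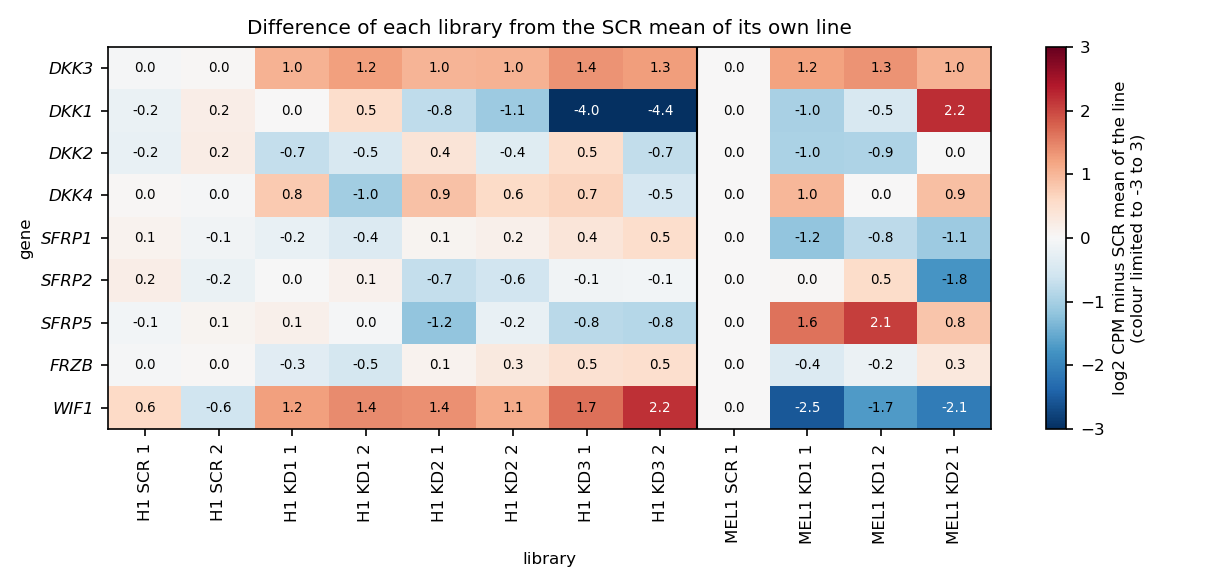
Difference of each library from the SCR mean of its own line in log2 CPM (prior count 2; colour runs from -3 in blue to 3 in red) for the 9 genes (rows) and 12 libraries (columns; the MEL1 SCR column is 0 by construction). The DKK3 row is between 1.03 and 1.35 in every knockdown library, while each other row holds both signs among the knockdown libraries.

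DKK1, the Dickkopf protein best known as an inhibitor of LRP5 and LRP6, lies on the plus strand at chr10:52314296-52318042. DKK1 was at 1.38 and 1.81 CPM in H1 SCR, 1.59 and 2.30 CPM with KD1, and 0.920 and 0.715 CPM with KD2. With KD3 it was at 0.0537 and 0.0248 CPM, which are 2 and 1 counts. In MEL1 it was at 3.34 CPM in SCR, 1.66 and 2.38 CPM with KD1, and 15.7 CPM with KD2. The H1 KD1 libraries overlapped SCR, those of KD2 lay below SCR, and those of KD3 were close to zero. The MEL1 KD2 library held the highest DKK1 level of the series.

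Averaged over the H1 hairpins, DKK1 fell by 1.98 on the log2 scale (SE 0.29), with an edgeR adjusted p of 0.0052. It was the only relative of DKK3 called in that comparison, 1 of 8 against 7.16% of all tested genes, and without H1 SCR replicate 2 the adjusted p was 0.076. KD3 carried most of the fall: DKK1 was the 1 of 8 relatives called in H1 KD3 against SCR, where 2.98% of all genes were called. The KD3 libraries held 3 counts in sum against 129 in SCR, a ratio of 0.0241 (exact 95% interval 0.00491 to 0.0720, which covers counting error only). The fitted log2 fold change was -5.25 (SE 0.50, edgeR adjusted p 0.000681). KD1 against SCR was 0.28 (SE 0.31, edgeR adjusted p 0.621) and KD2 against SCR was -0.96 (SE 0.33, edgeR adjusted p 0.175). KD3 differed from KD1 by -5.54 (edgeR adjusted p 0.000886) and from KD2 by -4.29 (edgeR adjusted p 0.00514). Without H1 KD3 replicate 2 the adjusted p of KD3 minus KD2 was 0.0694.

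In MEL1 the 700 DKK1 counts of the KD2 library against 49 in SCR gave a ratio of 4.72 (exact 95% interval 3.53 to 6.44), and the KD1 ratio was 0.599 (0.431 to 0.846). These intervals compare libraries, not conditions. The KD2 hairpin thus went with DKK1 levels below SCR in H1 and above SCR in MEL1. The DKK1 locus overlaps the antisense gene PRKG1-AS1 in the annotation, and how strand was used in counting is not given in the sources used here.

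DKK2, another ligand of LRP5 and LRP6, and DKK4 were close to the limit of detection. DKK2 was at 0.149 to 0.430 CPM in the 8 H1 libraries, with SCR inside the knockdown range. In MEL1, DKK2 was at 1.09 CPM in SCR, 0.537 and 0.545 CPM with KD1 and 1.08 CPM with KD2. DKK4 had 16 to 33 summed counts in each pair of H1 libraries, and 0, 2, 0 and 2 counts in MEL1 SCR, the 2 KD1 libraries and KD2. No knockdown comparison called either gene. DKK3 made up 65.2% to 99.2% of the CPM of the 4 Dickkopf genes, a share not corrected for transcript length. The lowest share was that of MEL1 KD2, where DKK1 was at 15.7 CPM, and the highest that of H1 KD3 replicate 2.

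SFRP1, a secreted frizzled-related protein of neural progenitors among other cells, was one of the most abundant members. SFRP1 was at 712 and 619 CPM in H1 SCR, 567 and 500 CPM with KD1, 700 and 743 CPM with KD2, and 855 and 959 CPM with KD3. In MEL1 it was at 630 CPM in SCR, 278 and 368 CPM with KD1 and 296 CPM with KD2. In H1 the KD1 libraries lay below SCR and the KD3 libraries above it, and in MEL1 all 3 knockdown libraries lay below SCR. KD3 exceeded KD1 by 0.77 on the log2 scale (SE 0.15), with an edgeR adjusted p of 0.0206, a call lost without H1 KD1 replicate 1, H1 KD1 replicate 2 or H1 KD3 replicate 2. The H1 average against SCR was 0.08 (SE 0.12, edgeR adjusted p 0.751). The knockdown effect in MEL1 minus that in H1 was -0.93 (SE 0.22) with an edgeR adjusted p of 0.0746. That difference was not a call; DESeq2, no filter on low counts and removal of a GC and length trend each called it.

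SFRP2, which binds Wnt ligands as SFRP1 does, was at 536 and 406 CPM in H1 SCR, 461 and 509 CPM with KD1, 286 and 313 CPM with KD2, and 437 and 439 CPM with KD3. In MEL1, SFRP2 was at 222 CPM in SCR, 229 and 325 CPM with KD1, and 65.3 CPM with KD2. KD2 was the lowest group in both lines, below SCR in each. In H1, KD2 against SCR was -0.65 on the log2 scale (SE 0.17) with an edgeR adjusted p of 0.0927. For that hairpin 0 of the 8 relatives were called against 1.54% of all genes. An unadjusted edgeR p under 0.05 was found for 2 of the 8, beside 4000 of all 24898 tested genes. DESeq2 called 1, SFRP2, and its share over all genes is not given here. The lower SFRP2 of the MEL1 KD2 library stood beside its marker sums given above, whose part in the result was not tested.

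FRZB, the frizzled-related protein first found in cartilage, lies on the minus strand at chr2:182833275-182867162. FRZB was at 160 and 168 CPM in H1 SCR, 131 and 113 CPM with KD1, 177 and 200 CPM with KD2, and 227 and 235 CPM with KD3. In MEL1, FRZB was at 64.1 CPM in SCR, 48.1 and 56.6 CPM with KD1 and 79.9 CPM with KD2. The groups kept the order KD1, SCR, KD2 in both lines, with KD3 above KD2 in H1. FRZB fell by 0.43 on the log2 scale with KD1 (SE 0.12, edgeR adjusted p 0.044), the 1 of 8 relatives called for KD1 in H1, where 11.1% of all genes were called. That call was lost in 14 of 20 alternatives (adjusted p 0.018 to 0.253). KD3 against SCR was 0.49 (SE 0.12, edgeR adjusted p 0.0543). KD3 exceeded KD1 by 0.92 (SE 0.12, edgeR adjusted p 0.00386) and KD2 exceeded KD1 by 0.63 (SE 0.12, edgeR adjusted p 0.0425), the second of which held in 6 of 20 alternatives. Without H1 KD1 replicate 2 the adjusted p of KD3 minus KD1 was 0.0564.

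**Figure D3:**
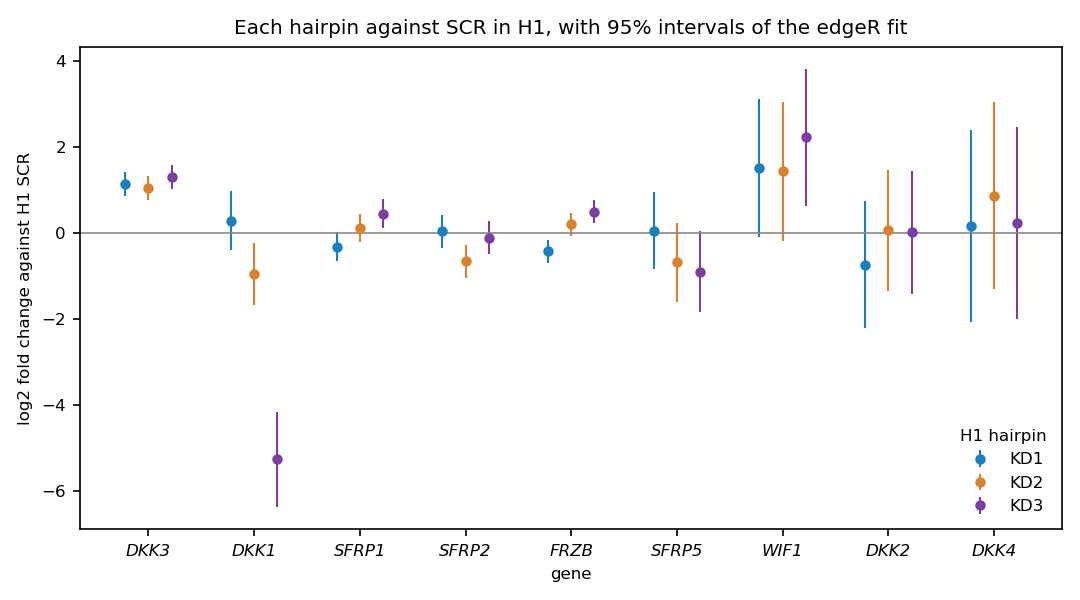
Log2 fold change of each H1 hairpin against H1 SCR (vertical axis) for the 9 genes; points are the edgeR fit over group means, bars are 95% intervals, and the 3 hairpins share the same SCR libraries. DKK3 lies between 1.04 and 1.31 for all 3 hairpins, DKK1 runs from 0.28 with KD1 to -5.25 with KD3, and FRZB runs from -0.43 to 0.49.

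Across the H1 hairpins, 3 of the 9 genes were called in the joint test of hairpin differences: DKK1 (edgeR adjusted p 0.00114), FRZB (0.00756) and SFRP1 (0.0436). Of all tested genes 3.54% were called there. No SCR library enters this comparison. The hairpin order was not shared: FRZB and SFRP1 were lowest with KD1 and highest with KD3, whereas DKK1 was highest with KD1 and lowest with KD3. Without H1 KD1 replicate 1, and likewise without replicate 2, 1 call was left, DKK1. METTL14 itself was at 11.1 and 11.0 CPM with KD1, 17.6 and 14.8 CPM with KD2 and 8.89 and 13.5 CPM with KD3, with an edgeR adjusted p of 0.285 between hairpins. DKK1 and FRZB, which were called between hairpins, each hold GGACT once in the coding sequence, printed here as for DKK3. SFRP1, also called between hairpins, holds none, and no link between the letters and the calls was tested. The windows cover coding bases 658 to 722 of 801 in DKK1 and 859 to 923 of 978 in FRZB.
DKK1: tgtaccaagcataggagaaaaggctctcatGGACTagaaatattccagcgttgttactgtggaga
FRZB: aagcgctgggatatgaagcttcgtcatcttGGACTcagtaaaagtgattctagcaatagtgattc
SFRP1, SFRP2 and SFRP5 held no GGACT in the coding sequence or the 3′ UTR of the transcript read, WIF1 held 2 in its coding sequence and DKK4 held 4. DKK2 held 1 in the coding sequence and 1 in the 3′ UTR, and the 3′ UTR of FRZB held 2.

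SFRP5 and WIF1 were low. SFRP5, a frizzled-related protein known from foregut and eye, was at 0.794 and 0.894 CPM in H1 SCR and at 0.342 to 0.936 CPM in the 6 H1 knockdown libraries. In MEL1, SFRP5 was at 0.750 CPM in SCR, 2.43 and 3.30 CPM with KD1 and 1.37 CPM with KD2, so all 3 knockdown libraries lay above the single SCR library. WIF1, which binds Wnt ligands through its own WIF domain, was at 0.179 and 0.0483 CPM in H1 SCR. All 6 H1 knockdown libraries were higher, at 0.277 to 0.644 CPM. The share of all tested genes with such separation is not given here. In MEL1 the arrangement was the opposite, with 1.43 CPM in SCR and 0.205, 0.402 and 0.292 CPM in the knockdown libraries. WIF1 rested on few counts, 9 in sum over H1 SCR and 21 in MEL1 SCR. Its H1 average was 1.72 on the log2 scale (SE 0.64, edgeR adjusted p 0.132). The WIF1 effect in MEL1 minus that in H1 was -3.73 (SE 0.99, edgeR adjusted p 0.0974). No relative was called in this comparison of the effect between lines, 0 of 8 against 0.598% of all genes. An unadjusted edgeR p under 0.05 was found for 4 of the 8, beside 4282 of all 24898 tested genes. DESeq2 called 1, SFRP1, and its share over all genes is not given here. The comparison rests on 1 MEL1 SCR library, whose spread was taken from the other groups.

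The levels of the antagonists differed between the lines. Averaged over SCR, KD1 and KD2, 7 of the 9 genes were called in MEL1 minus H1, beside 49.1% of all tested genes. Lower in MEL1 were SFRP2 by a log2 difference of -1.36 (SE 0.12, edgeR adjusted p 4.39e-06), FRZB by -1.27 (SE 0.09, edgeR adjusted p 4.43e-07) and SFRP1 by -0.70 (SE 0.10, edgeR adjusted p 0.000198). DKK4 is the fourth lower call, but with 0, 2, 0 and 2 counts in MEL1 it passed the filter on low counts through H1, the line where it is higher, so its call is not read as a result; 6 of the other 8 genes were called. Higher in MEL1 were DKK2 (log2 difference 1.81, SE 0.41), DKK1 (1.79, SE 0.21) and SFRP5 (0.97, SE 0.28); the SFRP5 call was lost when libraries were thinned to the smallest total (adjusted p 0.0887). DKK1 in this comparison includes the MEL1 KD2 library with its 15.7 CPM. DKK3 and WIF1 were not called.

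Per length, the members covered a wide range. Levels per kilobase of the longest annotated transcript, averaged over the 8 H1 libraries, were 208 CPM per kb for SFRP2, 157 for SFRP1, 55.8 for FRZB and 10.8 for DKK3. The other 5 ran from 0.614 CPM per kb for DKK1 to 0.0714 for DKK2 in H1. The ranges over libraries of SFRP2 (141 to 264 CPM per kb) and SFRP1 (111 to 214) overlapped, while those of SFRP1, FRZB (35.8 to 74.2) and DKK3 (5.42 to 14.3) did not. In MEL1 the means were 103 CPM per kb for SFRP2, 87.5 for SFRP1, 19.7 for FRZB and 11.4 for DKK3. The MEL1 ranges of SFRP2 (32.1 to 160) and SFRP1 (61.8 to 140) overlapped, so these libraries do not order the pair, while those of FRZB (15.2 to 25.3) and DKK3 (5.76 to 14.6) did not overlap. With the shortest coding transcript DKK3 and FRZB changed places in MEL1. SFRP1, SFRP2 and FRZB together summed to 1192 and 1408 CPM in H1 SCR and to 1122 to 1632 CPM in H1 knockdown, so the groups overlapped. In MEL1 the sum was 916 CPM in SCR and 441 to 749 CPM in knockdown, below SCR in all 3 libraries. Without correction for length, DKK3 was 1.01% and 1.26% of the summed CPM of all 9 genes in H1 SCR and 2.13% to 3% in H1 knockdown. In MEL1 its share was 1.63% in SCR and 4.87% to 6.43% in knockdown.

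The genes whose profile lay nearest to DKK3 are given as a description with no test. They were picked out of all ranked genes by the knockdown values that chose DKK3. Only 5 relatives were ranked, so their absence among the nearest genes was close to certain beforehand and is not read as a result. Likeness was the root mean square difference, over the 12 libraries, of log2 CPM profiles each set to 0 at the SCR mean of its line, among 14951 genes with a symbol and a mean of at least 1 CPM. The nearest were STUM (0.177 log2 units), CDC42EP5 (0.298), AATK (0.307), LRRC61 (0.310) and KIF12 (0.310). LRRC61, for example, was at 1.09 and 1.10 CPM in H1 SCR and 2.09 to 3.76 CPM in H1 knockdown, and at 6.07 CPM in MEL1 SCR and 17.0 to 18.0 CPM in MEL1 knockdown. Among the relatives FRZB ranked 7038, SFRP5 11651, SFRP2 12975, SFRP1 13093 and DKK1 14912, so 47.1% to 99.7% of the genes lay nearer to DKK3 than these 5 did. DKK2, DKK4 and WIF1 were too low to be ranked. Of the ranked genes, 32% lay nearer to DKK3 than DKK4 did, 90.4% nearer than DKK2 and 97.6% nearer than WIF1. With a prior count of 0.5 the share for DKK4 was 58.6%. A gene with no knockdown difference also lies apart from DKK3 on this measure, so a rank does not tell no change from an opposite one. The neighbours of DKK3 on chromosome 11 did not share its difference: the log2 fold change over both lines was 0.10 for USP47 (SE 0.30, edgeR adjusted p 0.919), 3782 bases away, and -0.32 for MICAL2 (SE 0.35, edgeR adjusted p 0.696), 84238 bases away.

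Other genes of the pathway were read from 6 lists. No gene of these lists was called over both lines; in the H1 average 13 were, beside 7.16% of all tested genes, and the counts below, those of the markers included, are to be read against that share. None of the 5 DKK receptors and co-receptors (LRP5, LRP6, KREMEN1, KREMEN2, CKAP4) was called in either comparison. In the H1 average 3 of them (LRP5, KREMEN1 and KREMEN2) were under 0.05 before adjustment, as were 5783 of all 24898 tested genes. Of the 11 tested other inhibitors, APCDD1 (-1.38, SE 0.14, edgeR adjusted p 0.000778) and TRABD2B (-0.65, SE 0.15, edgeR adjusted p 0.0292) fell and none rose. APCDD1, a membrane inhibitor that binds Wnt and LRP5, was at 22.1 and 21.5 CPM in H1 SCR and at 6.82 to 12 CPM in H1 knockdown. In MEL1 APCDD1 was at 9.2 CPM in SCR, 4.86 and 5.37 CPM with KD1 and 15.25 CPM with KD2. The list median was -0.37 against 0.01 over all tested genes.

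Of the 18 tested Wnt ligands, 3 fell and none rose in the H1 average: WNT8B (-1.15), WNT3A (-1.06) and WNT1 (-1.71), with edgeR adjusted p of 0.0028, 0.0139 and 0.0328. WNT8B, a ligand of the developing forebrain, was at 40.5 and 30.1 CPM in H1 SCR and 9.80 to 25.2 CPM in H1 knockdown. In MEL1 it was at 2.999 CPM in SCR and 4.35 to 7.87 CPM in knockdown, the opposite order. WNT3A likewise was at 0.954 CPM in MEL1 SCR and 6.05 to 7.27 CPM in MEL1 knockdown. The list median was -0.47. Of the 13 Frizzled and other receptors, FZD5 (1.002) and FZD8 (0.59) rose and FZD10 (-1.84) fell, with edgeR adjusted p of 0.000615, 0.0161 and 0.000579 and a list median of -0.05. FZD5, a receptor of the anterior neural plate and eye field, was at 99.7 and 104 CPM in H1 SCR and 185 to 225 CPM in H1 knockdown. In MEL1 FZD5 was at 67.81 CPM in SCR, 68.21 and 71.45 CPM with KD1 and 40.33 CPM with KD2. FZD10 was at 26.4 and 18.8 CPM in H1 SCR and 4.41 to 9.70 CPM in H1 knockdown, but in MEL1 at 3.54 CPM in SCR and 4.58 to 16.9 CPM in knockdown. Among 7 R-spondins and LGR receptors LGR4 rose (0.40, edgeR adjusted p 0.0455), a call lost in 8 of 21 alternatives, and the list median was 0.40.

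Of the 12 beta-catenin target genes, 4 fell and none rose in the H1 average: SP5 (-1.34), BAMBI (-0.88), LEF1 (-0.57) and AXIN2 (-0.51), with edgeR adjusted p of 0.0193, 0.0188, 0.0224 and 0.0328. The list median was -0.41. Of the 13 calls in these lists, those of APCDD1, WNT8B, FZD5 and FZD10 held when each library was left out in turn, and each of the other 9 was lost without H1 SCR replicate 1 or without H1 SCR replicate 2. AXIN2, a feedback inhibitor of the pathway, was at 57.5 and 49.4 CPM in H1 SCR and 32.3 to 44.9 CPM in H1 knockdown. In MEL1 it was at 91.5 CPM in SCR, 77.4 and 62.2 CPM with KD1 and 189 CPM with KD2. SP5, a transcription factor directly under beta-catenin, was at 12.5 and 7.57 CPM in H1 SCR. It was at 8.522 and 8.344 CPM with KD1, inside the SCR range, 4.279 and 4.175 CPM with KD2, and 2.52 and 0.992 CPM with KD3. In MEL1 SP5 was at 20.6 CPM in SCR, 10.95 and 11.97 CPM with KD1 and 64.6 CPM with KD2. BAMBI, a decoy receptor of TGF-beta signalling, was at 5.53 and 5.83 CPM in H1 SCR and lowest in H1 with KD2, at 1.95 and 2.42 CPM. In MEL1 BAMBI was at 18.6 CPM in SCR, 14.78 and 14.92 CPM with KD1 and 8.997 CPM with KD2. LEF1, a DNA-binding partner of beta-catenin, was at 33.6 and 30.5 CPM in H1 SCR and 18.3 to 25.1 CPM in H1 knockdown, and in MEL1 at 19.4 CPM in SCR, 10.5 and 11.7 CPM with KD1 and 31.0 CPM with KD2. All 4 genes were thus lower in both MEL1 KD1 libraries than in the single MEL1 SCR library. In the MEL1 KD2 library AXIN2, SP5 and LEF1 were above SCR and BAMBI was below it.

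**Figure D4:**
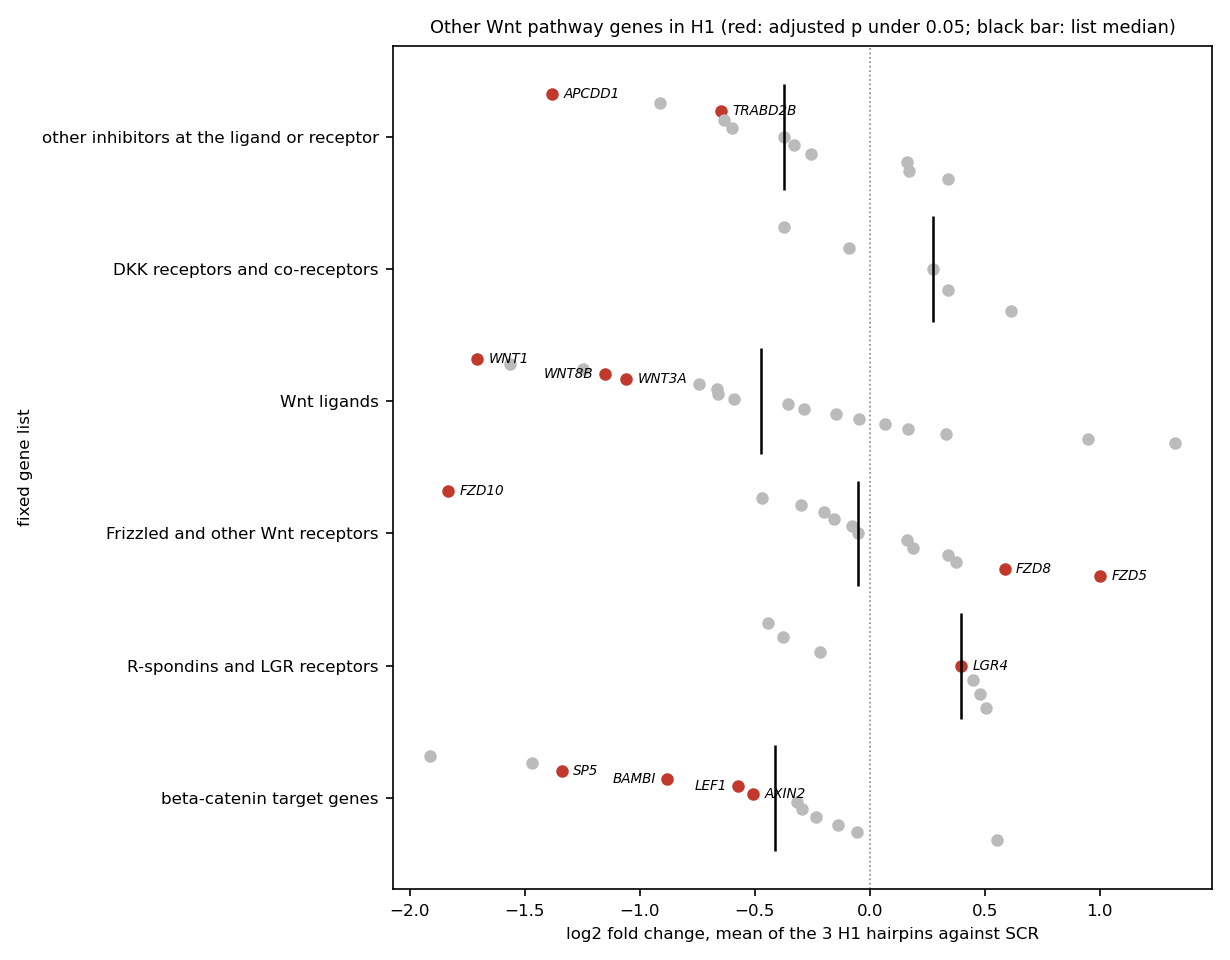
Log2 fold change of the mean of the 3 H1 hairpins against H1 SCR (horizontal axis) for the tested genes of 6 Wnt pathway lists (rows; vertical offsets only separate points). Red points are the 13 genes with an edgeR adjusted p under 0.05, grey points the others, and black bars the list medians, from -0.47 for Wnt ligands to 0.40 for R-spondins and LGR receptors.

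Markers of cell types were called in the same H1 comparison. These marker calls were not followed over the alternatives. Without H1 SCR replicate 2, 123 of all tested genes were called in that comparison against 1783 with all libraries. Of 8 neural ectoderm markers 6 rose (SIX3, RAX, LHX2, SOX2, PAX6 and OTX2), with edgeR adjusted p of 0.00941 to 0.0468. The list summed to 1349 to 1430 CPM in H1 SCR and 1580 to 1989 CPM in H1 knockdown. Of 6 pluripotency markers 4 fell in the average (ZFP42, POU5F1, NANOG and DNMT3B), with edgeR adjusted p of 0.0163 to 0.0491. The list summed to 609 to 622 CPM in SCR and 424 to 619 CPM in knockdown. With KD3 the sum was 599 to 619 CPM and overlapped SCR. POU5F1, ZFP42 and DNMT3B were below SCR with KD3, but NANOG was at 8.596 and 6.791 CPM against 7.045 and 6.115 CPM. TDGF1 and DPPA4, which were not called, were higher with KD3 than in SCR. Of 6 neural crest markers 4 fell (PAX3, SNAI2, FOXD3 and TFAP2B), with edgeR adjusted p of 0.00703 to 0.0435. Their list summed to 136 to 167 CPM in SCR and 83.1 to 129 CPM in knockdown. In MEL1 the neural ectoderm sum was lower in knockdown (764 to 817 CPM) than in SCR (1075 CPM), a sum made up mostly of SOX2, NES and OTX2. The other 5 markers (PAX6, SOX1, SIX3, LHX2 and RAX) were higher in all 3 MEL1 knockdown libraries than in MEL1 SCR, for example SOX1 at 4.77 CPM in SCR and 7.52 to 8.35 CPM in knockdown. Over both lines 7 of the 8 log2 fold changes were above 0, and none was called. For the endothelial list the sums were 163 to 167 CPM in H1 SCR and 68.8 to 95.2 CPM in H1 knockdown. These sums were almost wholly KDR, at 153 and 157 CPM in H1 SCR and 59.6 to 88.2 CPM in H1 knockdown. KDR was called lower in the H1 average and over both lines (-0.89, SE 0.16, edgeR adjusted p 0.0363 over both lines). The other 5 endothelial markers were not called, so the sum describes 1 gene rather than a cell type. Mesenchymal sums overlapped in H1, at 246 to 329 CPM in SCR and 226 to 413 CPM in knockdown. Neuronal sums also overlapped, at 484 to 558 CPM and 428 to 662 CPM, with STMN2 called lower. Surface epithelium sums, almost wholly KRT18, EPCAM and CDH1, were 369 to 376 CPM in SCR and 254 to 442 CPM in knockdown. Endoderm sums were 0.570 to 1.35 CPM in the H1 libraries. The part of these cell types in the DKK3 and DKK1 values was not tested.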

How the data were processed

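For 12 libraries, estimated counts by Ensembl gene identifier were deposited. The authors made them with fastp and kallisto, per the submitters' processing notes; build, annotation and strand setting are not given in the sources used here. Symbols came from a separate name table (41981 of 65969 identifiers), positions and lengths from GENCODE release 29. Members and lists were chosen with earlier results of these data known.

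Counts were rounded, filtered with filterByExpr (minimum count 10, 7 groups) and TMM-scaled. edgeR 4.0.16 (R 4.3.3) was run with glmQLFit (robust) and glmQLFTest, with Benjamini-Hochberg adjustment over 24898 genes and calls at an adjusted p under 0.05. The fit over both lines had line as covariate; other comparisons used 7 group means. SE is the log2 fold change over the square root of F. The script was tested on simulated data. Named genes were the members, METTL14, called list genes, the 5 nearest profiles and both neighbours of DKK3. Alternatives were 2 other scalings, 2 filters, group means, a non-robust fit, DESeq2 1.42.0, thinning, a GC and length trend (90.6% of tested genes had values), the H1 libraries taken separately, and each library left out in turn. Replicate numbers only name libraries. Depth limits DKK2, DKK4 and WIF1; intervals on counts cover counting error only.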

Additional observations from a re-analysis of the deposited data

Results flagged for a closer look

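DKK1, SFRP1 and FRZB drew attention because the effect of METTL14 knockdown differed between hairpins in H1 in a test of the difference itself. KD3 minus KD1 was -5.54 for DKK1, 0.77 for SFRP1 and 0.92 for FRZB on the log2 scale, with edgeR adjusted p of 0.000886, 0.0206 and 0.00386. Beside these, the 6 neural crest markers summed to 128 to 129 CPM with KD1 and 83.1 to 96.9 CPM with KD3, and the 9 mesenchymal markers to 407 to 412 CPM and 226 to 237 CPM. Among the neural crest markers TFAP2B and SNAI2 were higher with KD3 than with KD1. The mesenchymal sums were mostly COL1A1 and COL1A2. PDGFRB was also lower with KD3 than with KD1, whereas PDGFRA, PRRX1 and LUM were higher. The sums of pluripotency markers were 424 to 442 CPM with KD1 and 599 to 619 CPM with KD3, those of neuronal markers 449 to 454 CPM and 602 to 662 CPM, and those of neural ectoderm markers 1580 to 1601 CPM and 1739 to 1989 CPM. Endothelial sums, almost wholly KDR, were 89.5 to 95.2 CPM with KD1 and 75.6 to 85.4 CPM with KD3. Endoderm sums were 1.06 to 1.08 CPM and 0.570 to 0.913 CPM, and surface epithelium sums overlapped. Their part in the differences was not tested. No H1 knockdown library stood apart from the other 5 for any of the 9 genes by Dixon's test at the 95% level. That test pooled the hairpins and looks for a single library, so the pair of a hairpin can mask itself. For the low KD3 pair of DKK1 the gap over the range was 0.013 against a critical value of 0.625. Nothing is concluded from its outcome.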

How the results depend on the processing

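DKK3 stayed between 1.15 and 1.24 over both lines in 22 alternatives. Of the 8 relatives, the count called over both lines was 2 (SFRP1 and SFRP2) on group means and 0 otherwise. In H1 KD1 the count was 0 with relative log expression scaling, upper-quartile scaling, a non-robust fit, a GC and length trend removed, or thinning. In H1 KD2 it was 1 without a filter, in DESeq2 and with the GC and length trend removed, SFRP2 each time. In H1 KD3 it was 3 without a filter and in DESeq2 (DKK1, FRZB, SFRP1), and 2 with a minimum mean of 1 CPM or the GC and length trend removed (DKK1, FRZB). For the difference of effects between lines it was 2 without a filter (SFRP1, WIF1), 1 in DESeq2 and 1 with the GC and length trend removed (SFRP1). Shares over all genes under the alternatives are not given here for the single hairpins or for this difference. Leaving out each library gave 0 to 1 in the H1 average and H1 KD1, 1 to 2 in H1 KD3 and 1 to 3 between hairpins. Values over both lines changed sign for SFRP5 (-0.13 with the GC and length trend removed, -0.43 in H1 libraries by themselves), SFRP1 (0.12 in H1 libraries by themselves) and WIF1 (1.77 in H1 libraries by themselves). Leaving out each library gave ranges of -0.76 to 0.074 for DKK1, -0.51 to 0.12 for SFRP1, -0.44 to 0.39 for SFRP5 and -0.94 to 1.76 for WIF1 over both lines, and -0.53 to 0.081 for DKK2, -0.11 to 0.67 for DKK4 and -0.016 to 0.20 for SFRP1 in the H1 average. Of all genes, 53 were called over both lines against 11 to 280 with each library left out, 2478 on group means and 1246 in DESeq2; in the H1 average 1783 were called against 123 without H1 SCR replicate 2 and 3256 without a filter. The causes were not tested. Line differences could not be fitted without the MEL1 SCR or the MEL1 KD2 library. No paired analysis was possible because the labels carry no replicate numbers. The low counts of DKK2, DKK4 and WIF1 limit what can be read of these genes.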
